A study of Mus musculus with 12 samples.

Results

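The Krüppel-like factors described here are 7 genes, Klf2, Klf3, Klf4, Klf5, Klf6, Klf10 and Klf13, taken by name together with every probe set that the platform's annotation gives to them. They are 7 of 12393 genes with a name of their own on the array and hold 15 of its 22690 probe sets. Of those 15, 14 reached a signal of 100 on every one of the 12 arrays, and 1 of the 3 probe sets of Klf13 stayed below the filter on low signals. Lung RNA came from CD-1/ICR mice that were wild type (WT, Nrf2+/+) or deficient for the antioxidant transcription factor Nrf2 (KO, Nrf2-/-). In each genotype, 3 arrays were from mice breathing spontaneously for 2 h (SpV) and 3 from mice ventilated mechanically for 2 h at a high tidal volume of 30 ml/kg (HVT), a setting that overstretches the lung. WT SpV array 1 is labelled as whole lung and the other 11 as left lobe. The labels give no ages, do not say which part of Nrf2 was removed, and do not say that replicates are separate animals, so a p-value here reflects how these arrays vary, which may be technical variation alone.

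Krüppel-like factors are transcription factors that bind GC-rich and CACCC sequences through zinc fingers at their C-terminal end. KLF2 and KLF4 are best known in endothelium, where laminar blood flow raises both through a relay of the kinases MEK5 and ERK5 and MEF2 proteins. There they favour anticoagulant, vasodilating genes such as Nos3 and Thbd and restrain inflammatory ones. KLF2 was first described in lung and is also high in resting T cells. KLF6 and KLF10 respond quickly to injury and to TGF-beta, KLF5 acts in airway and alveolar epithelium, KLF3 is a repressor that recruits CtBP, and KLF13 is known from T lymphocytes.

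The arrays were not alike before normalization. Their trimmed mean signals ran from 73.9 to 469, and KO SpV array 1 stood apart as the dimmest, with a beta-actin 3' to 5' signal ratio of 8.76 against 1.39 to 3.10 on the other 11. The KO HVT arrays were dim too, from 182 to 247, with actin ratios of 2.21 to 3.10, against 1.53 to 1.99 on the WT HVT arrays. The signal of Nfe2l2, which encodes Nrf2, was 2144.3 to 3298.2 on the WT arrays and 36.2 to 61.3 on the KO arrays, a separation that follows the genotype labels. Markers of alveolar type II and airway cells were bright on all arrays, and 6 of 6 heart muscle markers were also measured.

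RefSeq promoter windows (build GRCm38.p6) were matched for 5 of the 7 genes. The 250 bases before the start of Klf2, Klf4 and Klf6 are shown, because Klf2 was the only member called between the genotypes, Klf4 followed it most closely among the members, and Klf6 had the largest value of the members after ventilation of WT lungs. Klf2 lies on chromosome 8 from 72319062 to 72321654, Klf4 on chromosome 4 from 55527137 to 55532475, and Klf6 on chromosome 13 from 5861489 to 5870393. In the window of Klf2 the capitals mark a site for MEF2, and in those of Klf4 and Klf6 they mark GC boxes (GGGCGG on either strand). All are written 5′ to 3′ on the strand of the gene.
Klf2, chr8:72318812-72319061, plus strand: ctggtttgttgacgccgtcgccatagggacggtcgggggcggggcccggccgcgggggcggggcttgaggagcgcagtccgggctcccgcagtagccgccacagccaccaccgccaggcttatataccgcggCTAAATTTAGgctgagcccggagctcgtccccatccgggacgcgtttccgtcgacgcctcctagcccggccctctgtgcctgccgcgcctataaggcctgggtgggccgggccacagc
Klf4, chr4:55532476-55532725, minus strand: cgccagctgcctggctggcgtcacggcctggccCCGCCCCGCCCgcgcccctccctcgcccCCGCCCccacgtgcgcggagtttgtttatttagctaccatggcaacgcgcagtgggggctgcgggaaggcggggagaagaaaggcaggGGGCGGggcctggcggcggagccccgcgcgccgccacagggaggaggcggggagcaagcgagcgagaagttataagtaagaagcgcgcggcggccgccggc
Klf6, chr13:5861239-5861488, plus strand: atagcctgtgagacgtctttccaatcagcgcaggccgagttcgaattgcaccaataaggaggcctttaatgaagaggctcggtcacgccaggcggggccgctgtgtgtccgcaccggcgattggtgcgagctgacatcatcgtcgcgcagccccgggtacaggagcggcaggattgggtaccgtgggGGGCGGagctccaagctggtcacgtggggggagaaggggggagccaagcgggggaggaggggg

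The MEF2 site of Klf2 lies 118 to 109 bases before the start. A match to the MEF2 consensus, searched on both strands, occurs in 2.92% of the 32851 promoter windows of this length. The same window of Klf2 holds 2 GC boxes, 1 CACCC box (CCACCC) and 1 copy of TGACG, the core of the cyclic AMP response element. GC boxes occur in 32.7% of all windows, CACCC boxes in 28.1% and TGACG in 17.8%. The window of Klf4 holds 4 GC boxes, the first pair of which share 1 base, and 1 TGACG, and has no MEF2 match. The window of Klf6 holds 1 GC box and, 174 to 166 bases before the start, 1 match to the core of the antioxidant response element (TGACNNNGC), the site that Nrf2 binds, which occurs in 10.2% of windows. These letters were not found in the windows of Klf2 or Klf4, which says nothing of other positions. The windows are GC-rich, at 71.2% in Klf2, 74.0% in Klf4 and 64.8% in Klf6, against a median of 52.4% over all windows. A match is a description of the letters, and no binding was measured.

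Klf2 was lower on the KO HVT arrays than on the WT HVT arrays, at 0.252 of the WT level. On the WT HVT arrays its normalized signal was 2384.7, 3592.3 and 1744.1, and on the KO HVT arrays 568.5, 585.8 and 674.1. These last lay close together (mean 609.5 ± 56.6, SD, n = 3) and all below the lowest of the WT HVT arrays (mean 2573.7 ± 938.5). The log2 difference was -1.99 ± 0.41 (SE, 95% interval -2.87 to -1.11), 3.97-fold lower in KO, with limma's adjusted p = 0.0468. This comparison called 0.742% of the 9294 genes tested, 0.409% as lower, and Klf2 had the 16th lowest log2 difference.

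**Figure D1:**
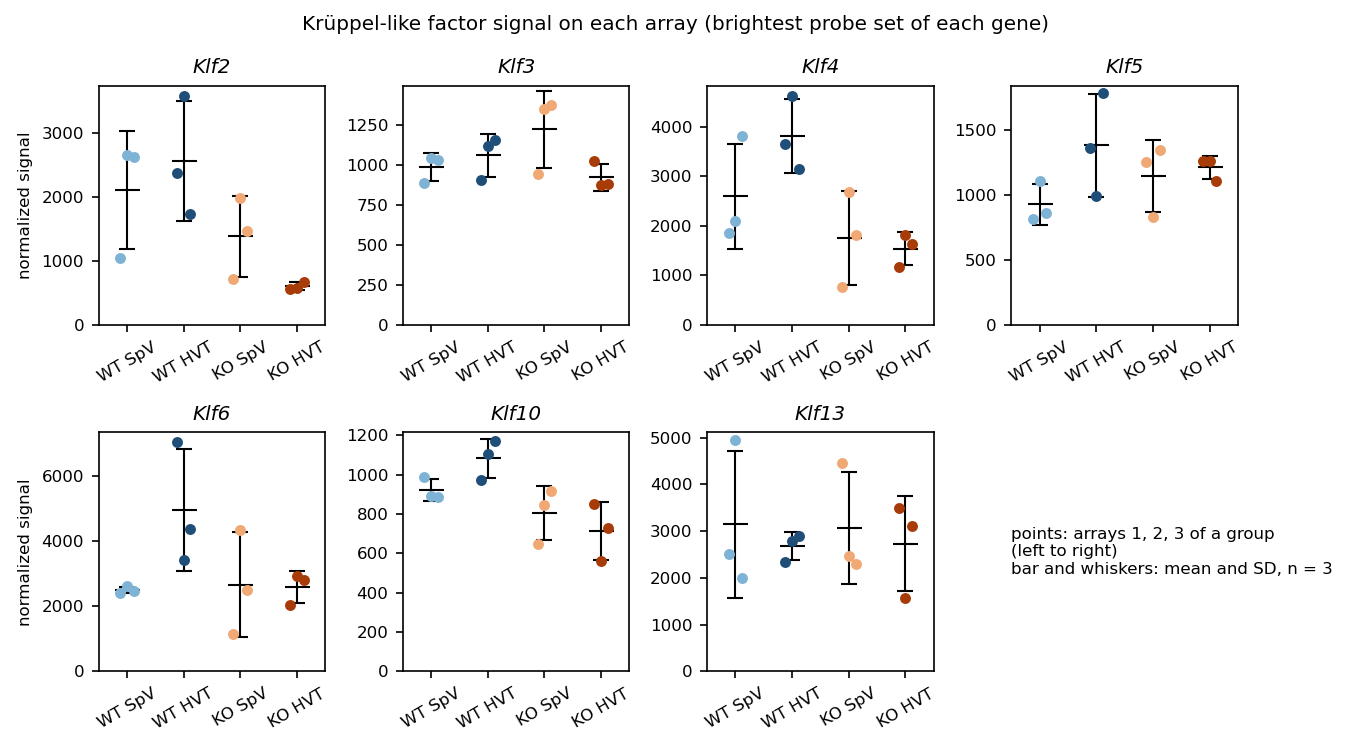
Normalized signal (linear axis from 0) of the brightest probe set of each of the 7 genes, with 1 point per array and bars for the mean and SD of the 3 arrays in a group. The 3 KO HVT points of Klf2 sit between 568.5 and 674.1, below every WT point of that gene.

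Under spontaneous breathing Klf2 had a signal of 1055.4, 2662.2 and 2633.4 on the WT arrays and of 717.1, 1983.5 and 1472.6 on the KO arrays. These groups overlapped, and the log2 difference between genotypes was -0.60 ± 0.41 (limma's adjusted p = 0.546). The low WT SpV array was array 1, the whole lung, and the lowest KO SpV array was the dim array 1. By mean signal the groups ran from WT HVT over WT SpV (2117.0 ± 919.5) and KO SpV (1391.1 ± 637.1) to KO HVT, and only the last step separated its neighbours without overlap. Averaged over both kinds of breathing, the genotypes differed by -1.30 ± 0.29 (limma's adjusted p = 0.0299), where 3.74% of all genes were called. Klf2 was the only member called there. That call was lost in 7 of the 12 fits that left out 1 array (WT SpV array 2 or 3, WT HVT array 1 or 2, or any KO HVT array), and limma's adjusted p ran from 0.0165 to 0.0844 over the 12.

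With ventilation the mean of Klf2 moved in opposite directions in the genotypes, without a call in either. In WT the log2 difference of HVT from SpV was 0.33 ± 0.41 (limma's adjusted p = 0.924), and it was -0.10 without WT SpV array 1. In KO it was -1.06 ± 0.41 (adjusted p = 0.391), and all 3 KO HVT arrays lay below the 3 KO SpV arrays. Groups without overlap were found for 14.4% of all genes in KO and 17.1% in WT. Without KO SpV array 1 the KO difference passed, at -1.47 ± 0.37 (adjusted p = 0.0356), in a fit that called 600 of 9168 genes for this comparison, against 0 of 9294 with all arrays. Over the settings that kept all arrays, its adjusted p ran from 0.0161, with array weights that called 1423 genes, to 0.999. The KO response differed from the WT response by -1.39 ± 0.57, at an unadjusted p of 0.0315 and limma's adjusted p of 0.9998. The interaction called 0 of 9294 genes in limma (0%), with 452 at an unadjusted p under 0.05.

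The call of Klf2 under ventilation was close to the threshold. It held without WT SpV array 1, KO SpV array 1 or KO SpV array 2 and was lost when any of the other 9 arrays was left out, with log2 differences from -2.24 to -1.72 and limma's adjusted p from 0.00548 to 0.217. The direction was lower in KO in all these fits. Without KO SpV array 1 the comparison called 485 of 9168 genes, against 69 of 9294 with all arrays.

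Klf4 had its highest signals on the WT HVT arrays. They were 3649.3, 4624.4 and 3148.9 there, 1862.9, 2101.1 and 3804.1 on the WT SpV arrays, 768.4, 2674.0 and 1819.7 on the KO SpV arrays, and 1163.9, 1804.7 and 1630.4 on the KO HVT arrays. The KO HVT arrays lay below all 6 WT arrays, while the WT SpV arrays overlapped with those of both other groups. Under ventilation Klf4 differed between genotypes by -1.31 ± 0.39, 2.48-fold lower in KO, which did not pass (limma's adjusted p = 0.188). Averaged over both kinds of breathing the difference was -0.98 ± 0.28 (adjusted p = 0.0657).

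The other probe set of Klf4 followed the first across the 12 arrays (r = 0.896). On the WT HVT arrays it read 1143.4, 1181.7 and 764.7, and on the KO HVT arrays 436.6, 626.4 and 506.5, again without overlap, as for 24.7% of all probe sets. In the fit over all 14510 probe sets its averaged genotype difference was -0.80 ± 0.18 and passed (limma's adjusted p = 0.0322), where 3.23% of probe sets were called, against 0.565% in the genotype comparison of the HVT arrays alone. The brighter probe set missed the threshold in that fit, at adjusted p = 0.0733.

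One array bears on Klf4. Without KO SpV array 1 the brighter probe set passed under ventilation, at -1.30 ± 0.26 (limma's adjusted p = 0.0157), within a range of 0.0157 to 0.525 over the fits that left out 1 array each. The size hardly moved, and that fit called 485 genes in all, as given for Klf2. The averaged difference then passed as well, at -0.73 ± 0.20 (adjusted p = 0.0444), and without KO SpV array 2 it was -1.18 ± 0.25 (adjusted p = 0.0231). These fits called 625 and 580 genes for the averaged difference, against 348 with all arrays. With ventilation Klf4 had a log2 difference of 0.61 ± 0.39 in WT (adjusted p = 0.810) and -0.04 ± 0.39 in KO (adjusted p = 0.983). The sign in KO turned when KO SpV array 2, KO SpV array 3 or KO HVT array 1 was left out.

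**Figure D2:**
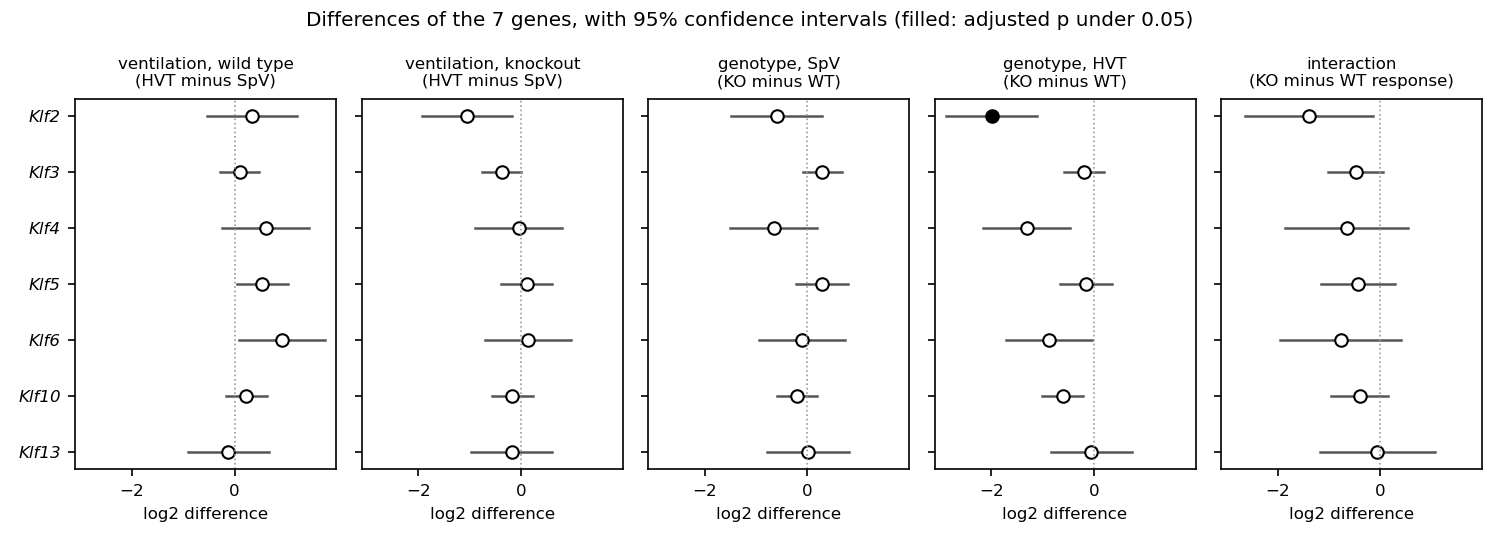
Log2 differences of the 7 genes with 95% confidence intervals for ventilation in WT and KO (HVT minus SpV) and for genotype under SpV and HVT (KO minus WT), filled where limma's adjusted p was under 0.05. The only filled point is Klf2 for genotype under ventilation, at -1.99.

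Klf6 had the largest value of the 7 genes after ventilation of WT lungs, and its probe sets shared the direction. Its brightest probe set read 2421.5, 2620.5 and 2477.8 on the WT SpV arrays and 7052.9, 3432.3 and 4391.0 on the WT HVT arrays. The WT groups did not overlap, the SpV arrays lay close together, and WT HVT array 1 was the highest. The log2 difference was 0.91 ± 0.38 and did not pass (limma's adjusted p = 0.563), where 0.0753% of genes were called. The other probe sets of Klf6 had 1.37 ± 0.37 (adjusted p = 0.345) and 1.53 ± 0.39 (adjusted p = 0.292), both with groups apart, in a fit that called 0.0138% of probe sets and left the groups of 16.5% apart.

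In KO lungs Klf6 read 1146.8, 4351.9 and 2509.4 on the SpV arrays and 2042.9, 2936.5 and 2813.5 on the HVT arrays. These HVT arrays lay inside the span of the KO SpV arrays, whose lowest was the dim array 1. The difference with ventilation was 0.14 ± 0.38 (limma's adjusted p = 0.931), and -0.36 without that array. The other Klf6 probe sets did not share a direction in KO. They had 0.56 ± 0.37 (adjusted p = 0.616) and, for the dimmest, -0.25 ± 0.39 (adjusted p = 0.847), both with overlap. The dimmest Klf6 probe set had the interaction with the smallest p of any member probe set, -1.78 ± 0.55, which did not pass (limma's adjusted p = 0.983). Between genotypes under ventilation Klf6 differed by -0.88 ± 0.38 (adjusted p = 0.362), with the groups apart for the brightest probe set and overlapping for the other two.

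Klf10, a TGF-beta-inducible repressor with a single probe set here, varied over a narrower range. It read 973.9, 1104.7 and 1171.0 on the WT HVT arrays and 851.4, 561.4 and 731.3 on the KO HVT arrays. The groups did not overlap, and the difference was -0.60 ± 0.18 (limma's adjusted p = 0.190). Without KO SpV array 1 it passed, at -0.61 ± 0.16 (adjusted p = 0.0446), again with 485 genes called in all and against a range of 0.0446 to 0.497 over the fits that left out 1 array each. With ventilation it differed by 0.23 ± 0.18 in WT (adjusted p = 0.849) and -0.17 ± 0.18 in KO (adjusted p = 0.773). Under spontaneous breathing the genotypes differed by -0.20 ± 0.18 (adjusted p = 0.662).

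Under ventilation 4 of the 7 genes, Klf2, Klf4, Klf6 and Klf10, had KO and WT arrays that did not overlap, all lower in KO. Groups apart were found for 25.3% of all genes in this comparison and for 13% as lower. Under spontaneous breathing the groups of all 7 genes overlapped, against 18.4% of all genes with groups apart, and 0 members passed in limma, where 0.334% of genes were called. By their brightest probe sets 0 of the 7 members had an unadjusted p under 0.05 there, as 1279 of all genes did. The dimmer Klf4 probe set had -0.66 ± 0.25 there, with overlap (limma's unadjusted p = 0.0229, adjusted p = 0.304). The dimmer Klf13 probe set, given below, had 0.43 ± 0.16 with groups apart (limma's unadjusted p = 0.0199). With ventilation 0 members passed in WT, in KO or averaged over the genotypes, where limma called 0.0753%, 0% and 0.108% of all genes. By brightest probe sets, 745 genes stood at an unadjusted p under 0.05 in WT, Klf5 and Klf6 among them. In KO 987 did, Klf2 and Klf3 among them, and in the average 1236, with 0 members. Dimmer probe sets were also under 0.05, without passing after adjustment. That of Klf4 was so in WT (0.61 ± 0.25) and in the average (0.46 ± 0.18). A dimmer Klf13 probe set was so in KO (-0.35 ± 0.16), and that of Klf5 in the average (0.74 ± 0.22). The dimmer Klf6 probe sets had 0.97 ± 0.26 and 0.64 ± 0.28 in the average.

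Klf5, an epithelial factor, showed the opposite order of genotypes from Klf2 in resting lungs, within the spread. It read 817.8, 1111.9 and 859.4 on the WT SpV arrays, 1363.5, 997.8 and 1791.1 on the WT HVT arrays, 1257.7, 836.0 and 1351.3 on the KO SpV arrays, and 1267.2, 1261.9 and 1113.5 on the KO HVT arrays. All neighbouring groups overlapped. The difference with ventilation was 0.54 ± 0.23 in WT (limma's adjusted p = 0.576) and 0.11 ± 0.23 in KO (adjusted p = 0.900). Its dimmer probe set went from 379.1, 389.7 and 448.9 on the WT SpV arrays to 921.9, 509.7 and 918.7 on the WT HVT arrays, without overlap, at 0.88 ± 0.31 (adjusted p = 0.497). In KO that probe set had 0.60 ± 0.31 (adjusted p = 0.502), with overlap.

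The probe sets of Klf3 disagreed with each other, and so did those of Klf13. The brightest Klf3 probe set ranged from 872.6 to 1374.7 over the 12 arrays. Its difference with ventilation in KO was -0.38 ± 0.18 (limma's adjusted p = 0.470), where the KO SpV arrays read 945.6, 1349.5 and 1374.7 and the KO HVT arrays 1022.8, 872.6 and 880.3. It correlated with the other Klf3 probe sets at r = 0.633 and -0.518. The probe set that ran against it differed by 0.51 ± 0.34 between genotypes under ventilation, with groups apart and higher in KO, while the other two had -0.19 ± 0.18 and -0.42 ± 0.28. No single direction can therefore be given for Klf3 in that comparison.

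The brightest Klf13 probe set ranged from 1576.7 on KO HVT array 2 to 4943.1 on WT SpV array 2. Each of its 4 differences between groups lay between -0.18 and 0.01 with an SE of 0.36. The dimmer probe set of Klf13 read 733.6, 882.9 and 616.6 on the WT SpV arrays and 1046.2, 1005.1 and 939.0 on the KO SpV arrays. Those groups were apart, as for 17.9% of all probe sets, at 0.43 ± 0.16 (limma's adjusted p = 0.290), in a comparison that called 0.448% of probe sets. The third probe set of Klf13, left out as dim, read between 5.3 and 27.5 on 11 arrays and 110.2 on KO HVT array 3.

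**Figure D3:**
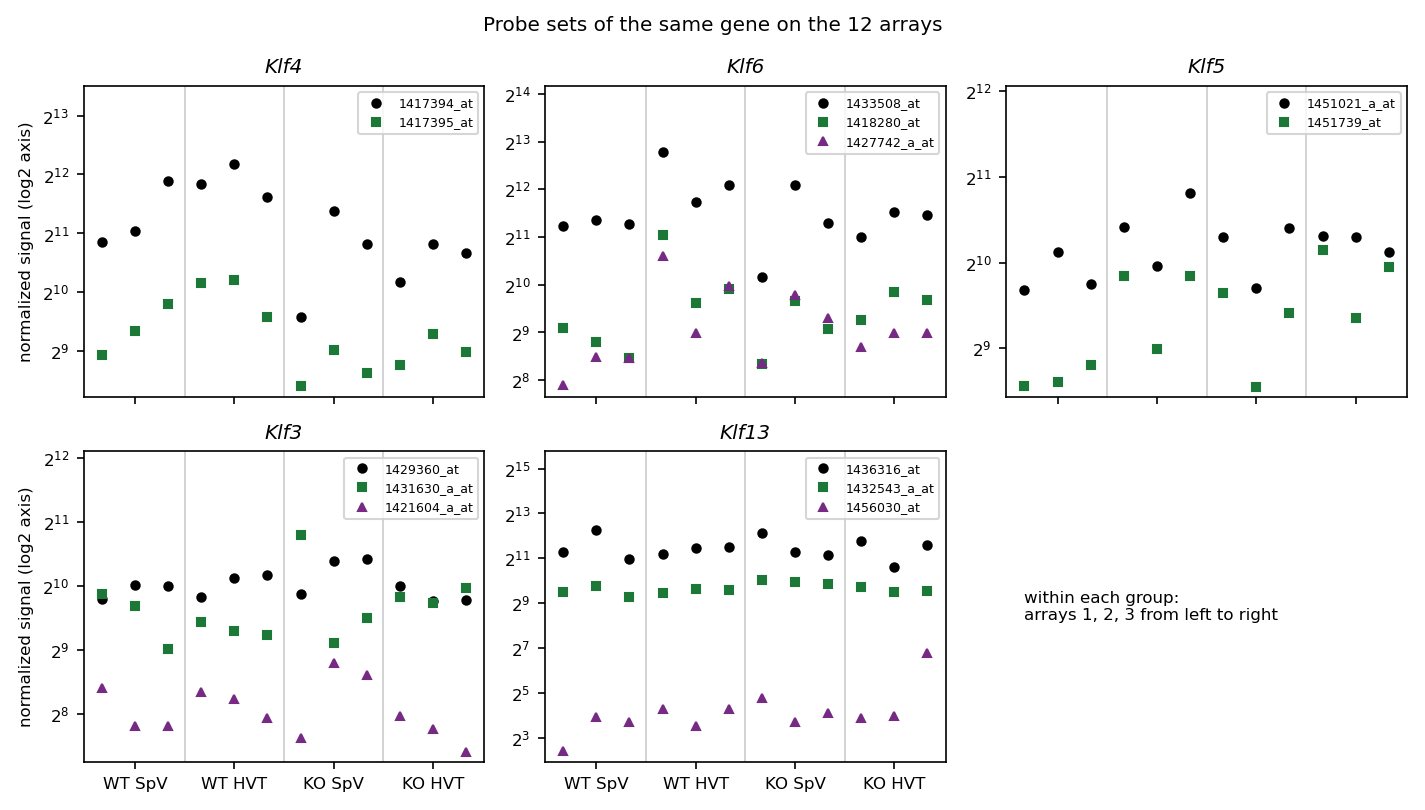
Normalized signal (log2 axis) of each probe set of the 5 genes with more than 1, over the 12 arrays in group order. The probe sets of Klf4 and those of Klf6 rise and fall together, with r of 0.823 or more, while 1 probe set of Klf3 runs against the other two.

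Across the 12 arrays, Klf2 and Klf4 followed each other more closely than any other pair of members, with a Pearson r of 0.832 of their log2 signals. Klf4 and Klf6 followed at 0.769, and Klf2 and Klf10 at 0.692. Klf5 and Klf13 had r between -0.44 and 0.14 with every other member. These are descriptions over 12 arrays that share the 4 groups and the differences in brightness and RNA quality, so a common group pattern alone gives a high r.

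The genes most like Klf2 over the 12 arrays were Cldn5 (r = 0.931), Pef1 (0.923), Ets2 (0.922), Kcne2 (0.920) and Carhsp1 (0.917). Cldn5 encodes the claudin of endothelial tight junctions, and Ets2 a transcription factor of the ETS family. Those most like Klf4 were Lnx2 (r = 0.941), Fbxw8 (0.930), Sgk1 (0.921), Ackr3 (0.917) and Rhob (0.906). Sgk1 is a kinase induced by glucocorticoids and stress, Ackr3 a scavenging receptor for CXCL12, and Rhob an immediate early GTPase. Klf6 was followed by Plk3 (0.928), Riok1 (0.927) and Ell2 (0.919), of which Plk3 is a stress-induced kinase and Ell2 an elongation factor. Klf10 was followed by Anxa7 (0.934), H2-Q2 (0.891) and Txn1 (0.871), the last of which encodes thioredoxin. Klf5 was followed by Slc26a2 (0.875), Nop58 (0.865) and Foxq1 (0.858), Klf3 by Hcar2 (0.897), Spcs2 (0.880) and H2-DMa (0.879), and Klf13 by Rest (0.910), Gtf2b (0.906) and Rprd1a (0.871).

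Because Klf2 is an endothelial gene in lung, the markers of endothelium were set beside it. Of 13 markers, all 13 were measured, and 12 were lower in KO under ventilation. Of these 11 had groups apart, against 13% of all genes apart and lower. The log2 differences of the 13 markers ran from -2.05 to 0.23 with a median of -0.98, against 0.01 for all genes. In limma 0 passed, where 1192 genes had an unadjusted p under 0.05, 11 of the markers among them. The largest was that of Cdh5, the cadherin of endothelial junctions, at -2.05 ± 0.53 (limma's adjusted p = 0.121), and Kdr, the VEGF receptor, had 0.23 ± 0.17 (adjusted p = 0.582). Averaged over both kinds of breathing, 12 of the 13 were lower in KO. In limma 6 were called (Cdh5, Tie1, Cldn5, Emcn, Egfl7 and Esam), where 3.74% of all genes were called.

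The summed signal of the 13 endothelial markers ran from 32838.9 to 40832.3 on the WT SpV arrays, from 23047.1 to 37692.9 on the WT HVT arrays, from 13418.6 to 29208.8 on the KO SpV arrays and from 13701.6 to 15371.4 on the KO HVT arrays. The KO HVT arrays, lowest in Klf2, were thus also low in endothelial markers, together with KO SpV array 1. In such bulk samples fewer cells of a type and less RNA per cell cannot be told apart. Alveolar type I markers moved alike: 7 of 7 measured were lower in KO under ventilation, 0 of them called and 6 at an unadjusted p under 0.05. Their sum was 16592.9 to 22243.7 on the KO HVT arrays against 32039.2 to 46450.5 on the WT HVT arrays. Under SpV these 7 were lower in KO too, with a median of -0.51 and 0 called. Of 6 heart muscle markers all 6 were higher in KO under ventilation. In limma 5 of them were called, where 0.742% of all genes were called. Under SpV all 6 were higher in KO too, with a median of 0.61 and 1 called, where 0.334% of all genes were called. The sum of the 6 was 42625.3 to 47658.0 on the KO HVT arrays against 21779.7 to 32261.4 on the WT HVT arrays. Of 5 measured T and NK cell markers, 3 were lower and 2 higher, with a median of -0.28, 0 called and 0 at an unadjusted p under 0.05. The part of these cell types, of brightness and of RNA quality in the result on Klf2 was not tested, beyond the values that follow.

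The mean log2 signal of the 13 endothelial markers was subtracted from that of Klf2 on the same array. Levels of different probe sets cannot be compared, so only shifts of this measure between groups are given. From the WT HVT to the KO HVT arrays it shifted by -1.02 without overlap (SD 0.21 and 0.24, n = 3 each), at p = 0.1 in a two-sided exact permutation test, the smallest p that 3 arrays against 3 allow. Between genotypes under SpV the shift was 0.26 (exact permutation p = 0.9). With ventilation it differed by 0.72 in WT and by -0.56 in KO, each at an exact permutation p of 0.1. The WT shift leans on WT SpV array 1, the whole lung. The measure was -0.83 on that array, 0.16 and 0.30 on WT SpV arrays 2 and 3, and 0.36 to 0.76 on the WT HVT arrays. For Klf4 the shift from the WT HVT to the KO HVT arrays was -0.34 (SD 0.16 and 0.36, n = 3 each, exact permutation p = 0.2), and in WT it was 0.997 higher with ventilation (exact permutation p = 0.1). These 8 comparisons were not adjusted, and none could pass at 3 against 3.

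**Figure D4:**
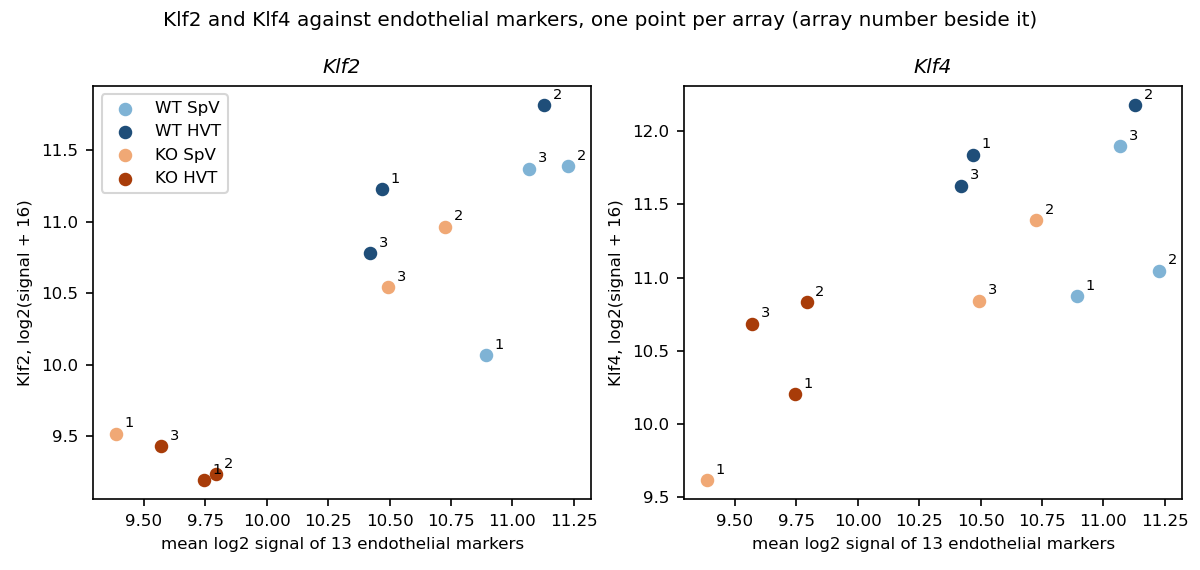
Log2 signal of Klf2 and of Klf4 (vertical axes) against the mean log2 signal of 13 endothelial markers (horizontal axes), with 1 point per array, coloured by group and numbered within it. The KO HVT arrays lie at the low end of the marker axis, and relative to the markers their Klf2 values differ from those of the WT HVT arrays by -1.02.

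With this marker mean as a covariate in the limma fit, a setting chosen after seeing the data, the genotype difference of Klf2 under ventilation was -0.88 ± 0.35 and did not pass (adjusted p = 0.226). The averaged difference was -0.24 ± 0.29 (adjusted p = 0.692). Klf4 had -0.27 ± 0.35 under ventilation (adjusted p = 0.740) and 1.02 ± 0.27 for ventilation in WT (adjusted p = 0.139). With the actin ratio as a covariate Klf2 still passed under ventilation, at -1.65 ± 0.34 (adjusted p = 0.0344), in a fit that called 139 genes there, against 69. Over all settings that kept every array, the adjusted p of Klf2 under ventilation ran from 0.0126, with array weights that called 549 genes, to 0.226.

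**Figure D5:**
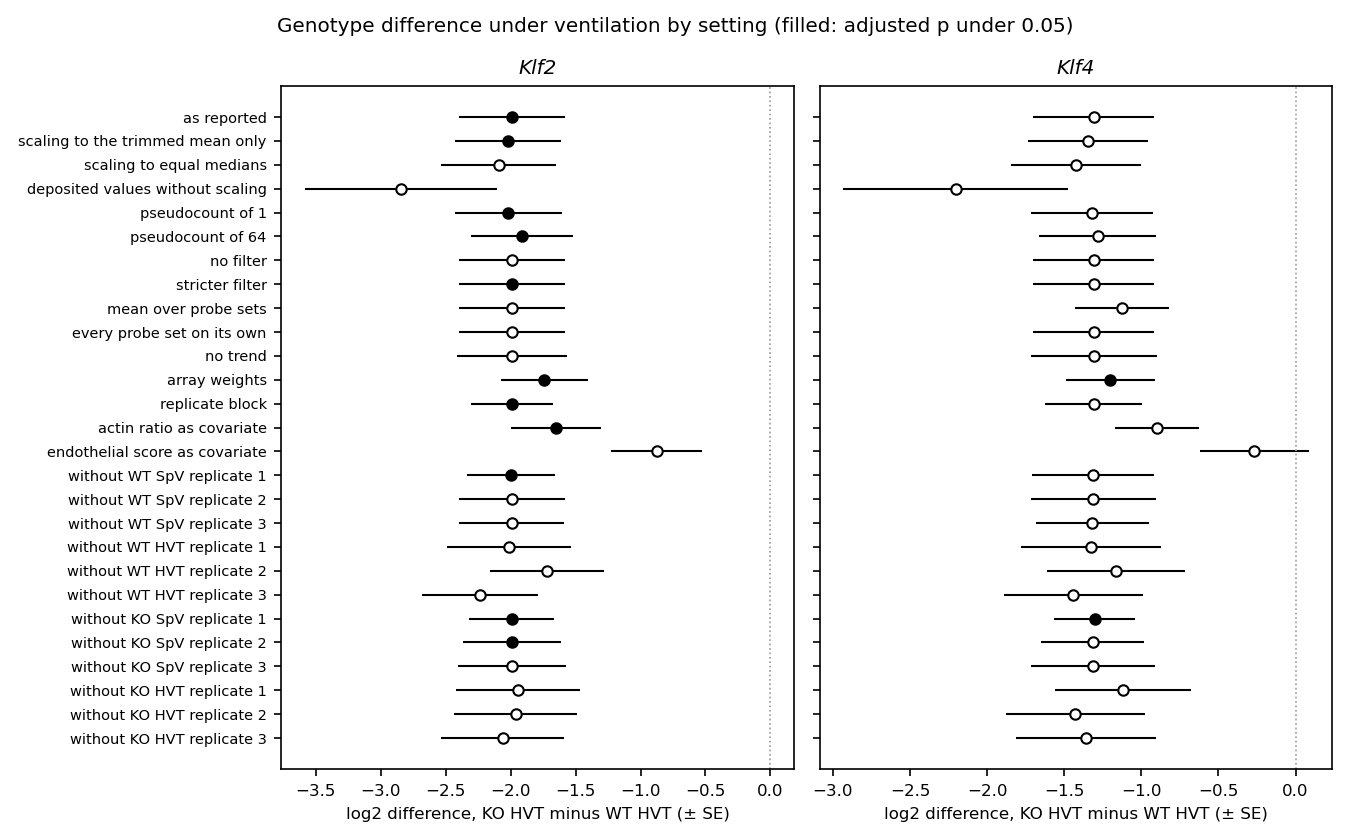
Log2 difference between genotypes under ventilation (KO HVT minus WT HVT, ± SE) for Klf2 and Klf4 under each processing setting, filled where limma's adjusted p was under 0.05. Both genes stay below 0 in every setting shown, and the endothelial covariate gives the values nearest to 0, -0.88 and -0.27.

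The relay that raises Klf2 and Klf4 had no called gene. Of 10 genes of the MEK5, ERK5 and MEF2 relay 9 were measured, and 0 passed in any of the 7 comparisons in limma, with 0 to 2 at an unadjusted p under 0.05 in each. With ventilation the median of the 9 was -0.08 in WT and 0.02 in KO, and between genotypes it was -0.17 under SpV and -0.15 under HVT. Single genes went further than these medians. The lowest value was that of Mapk7, which encodes ERK5 itself, at -0.71 ± 0.46 between genotypes under SpV (limma's adjusted p = 0.528). Its signal was close to the filter, at 102.2, 175.0 and 174.6 on the WT SpV arrays and 24.6, 167.7 and 115.6 on the KO SpV arrays, and the groups overlapped. Mef2d, a MEF2 transcription factor, read 1725.8, 1470.7 and 1609.0 on the WT SpV arrays and 2250.7, 2337.5 and 2506.3 on the WT HVT arrays. Those arrays did not overlap, at 0.56 ± 0.12 (limma's adjusted p = 0.176). Hdac7, an endothelial deacetylase that restrains MEF2, had -0.32 ± 0.16 (adjusted p = 0.679). In KO the smallest p belonged to Mef2c at 0.59 ± 0.32 (adjusted p = 0.550) and the kinase Map2k5, which encodes MEK5, at -0.27 ± 0.18 (adjusted p = 0.626).

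Endothelial genes that KLF2 or KLF4 are known to raise were mostly lower in KO. Of 9 measured, 7 were lower under ventilation, with a median of -0.87 against 0.01 for all genes, 0 called and 5 at an unadjusted p under 0.05. Groups were apart and lower for 6 of the 9, and for 13% of all genes. Under spontaneous breathing 7 of 9 were lower, with a median of -0.74, 0 called and 5 at an unadjusted p under 0.05. There 4 were apart and lower and 1 apart and higher, where 18.4% of all genes had groups apart. Averaged over both, 7 of 9 were lower and 3 were called in limma, where 3.74% of all genes were called. Ptgds and Ccn3 were higher in KO in that average, at 0.57 ± 0.30 and 0.13 ± 0.26, without a call. Cxcl12, a chemokine, was lower by 1.16 ± 0.23 (limma's adjusted p = 0.0198). S1pr1, the sphingosine phosphate receptor that tightens endothelium, was lower by 0.62 ± 0.14 (adjusted p = 0.0290). Thbd, the anticoagulant receptor thrombomodulin, was lower by 1.71 ± 0.43 (adjusted p = 0.0450). Of these 9 genes Tek is also among the 13 endothelial markers. Those markers had medians of -0.98 under ventilation and -0.93 under spontaneous breathing, so the lower values were not particular to this list.

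Thbd read 5093, 8408 and 6643 on the WT SpV arrays, 2771, 6737 and 3232 on the WT HVT arrays, 540 (the dim array 1), 3755 and 4123 on the KO SpV arrays, and 1107, 1196 and 1189 on the KO HVT arrays. The KO HVT arrays lay below all WT arrays, as for Klf2. Nos3, the endothelial nitric oxide synthase, had -0.38 ± 0.31 between genotypes under ventilation (limma's adjusted p = 0.624), with overlap. With ventilation 7 of the 9 genes were lower in WT (median -0.45) and 8 in KO (median -0.55), with 0 called in either and 2 and 1 at an unadjusted p under 0.05. Gja4, a connexin of arterial endothelium, had the smallest p in both, at -1.21 ± 0.34 in WT (adjusted p = 0.327) and -1.48 ± 0.34 in KO (adjusted p = 0.212). Cxcl12 had -1.02 ± 0.33 in WT (adjusted p = 0.395), and Tek, the angiopoietin receptor, -0.85 ± 0.47 in KO (adjusted p = 0.556).

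Genes that KLF2 or KLF4 are known to hold down did not share a direction. Of 7 measured, 5 were higher with ventilation in WT (median 0.08) and 3 in KO (median -0.04), and 5 were lower in KO than in WT under ventilation (median -0.51), with 0 called in any of the 7 comparisons and 0 to 4 at an unadjusted p under 0.05. F3, tissue factor, read 689, 780 and 490 on the WT SpV arrays and 3705, 1421 and 2683 on the WT HVT arrays, without overlap, at 1.89 ± 0.39 (limma's adjusted p = 0.162). In KO it had 1.01 ± 0.39 (adjusted p = 0.391). Il6 read 34.8, 14.2 and 23.0 on the WT SpV arrays, all below the filter's 100, and 446.2, 63.985 and 248.7 on the WT HVT arrays. It did not pass (limma's adjusted p = 0.393), and no fold is given against signals that low. Edn1, the vasoconstrictor endothelin, had -1.02 ± 0.35 with ventilation in KO (adjusted p = 0.369).

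The remaining relatives and partners gave 0 called genes in limma in each of the 7 comparisons. Of 18 other KLF and SP family members 8 were measured, with 0 to 3 at an unadjusted p under 0.05. Klf16 read 218.7, 167.3 and 207.2 on the WT SpV arrays and 282.3, 276.0 and 284.6 on the WT HVT arrays, at 0.48 ± 0.18 (limma's adjusted p = 0.493). Between genotypes under ventilation it had -0.60 ± 0.18 (adjusted p = 0.189), with groups apart. Klf7 had 0.36 ± 0.26 with ventilation in WT (adjusted p = 0.839) and 0.50 ± 0.26 in KO (adjusted p = 0.541), and Sp7, an osteoblast factor, 0.55 ± 0.33 in KO (adjusted p = 0.590).

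Of 11 genes of the TGF-beta feedback around KLF6 and KLF10, 10 were measured, with 0 to 5 at an unadjusted p under 0.05 in a comparison. Of the 10, 9 were lower in KO under ventilation (median -0.30) and 8 under SpV (median -0.30). Smad7, the inhibitory SMAD, had -0.50 ± 0.18 with ventilation in WT (limma's adjusted p = 0.451) and -0.59 ± 0.18 in KO (adjusted p = 0.296). Skil, a corepressor of SMADs, had 0.33 ± 0.14 in WT (adjusted p = 0.541), and Eng, an endothelial co-receptor that is also among the 13 markers, -1.20 ± 0.33 in KO (adjusted p = 0.267). Of the KLF cofactors 7 were measured, with 0 or 1 at an unadjusted p under 0.05 and all within -0.33 and 0.19 in the 4 comparisons between groups. Of the ubiquitin ligases 5 were measured, with 0 to 3 at an unadjusted p under 0.05. Fbxw7, which marks KLF proteins for degradation, had -0.37 ± 0.15 with ventilation in KO (adjusted p = 0.411), and Wwp1, a ligase of KLF2 and KLF5, -0.36 ± 0.15 (adjusted p = 0.430). Fbxo32, an F-box protein best known from muscle wasting, went the other way, at 0.80 ± 0.43 (limma's adjusted p = 0.552). On the HVT arrays it read 208.9, 421.1 and 188.3 in WT and 420.5, 823.7 and 425.1 in KO, with overlap, at 1.003 ± 0.43 (adjusted p = 0.356).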

How the data were processed

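The deposited values were probe set intensity values on a linear scale from Murine Genome 430A arrays, made with GCOS 1.4 per the submitters' processing notes. The design text gives a scaling to an average of 500, which the deposited intensities do not show. Each array was therefore scaled so that its mean, trimmed by 2% at each end, was 500, and the 12 arrays were quantile normalized. The 64 control probe sets were left out, and probe sets with normalized signal of 100 or more on at least 3 arrays were kept. Each gene was represented by its brightest single-gene probe set (9294 genes from 14510 probe sets), as log2(signal + 16). Differences are on that scale.

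Means of the 4 groups were fitted to the 12 arrays with limma 3.58.1 in R 4.3.3 (lmFit, eBayes with trend, 8 residual and 4.44 prior degrees of freedom). P-values were two-sided, adjusted by Benjamini-Hochberg over all genes, and called under 0.05. The fit was tested on simulated data with independent normal noise in each gene. Those data held no differences between arrays in brightness or RNA quality, unlike the arrays here. The number of arrays limits the precision. Members, marker and pathway lists and the rule for named genes (all members and probe sets, the 3 or 5 genes most correlated with each, and the called or otherwise 2 smallest-p genes of each list) were chosen with earlier results of these data known. F3, Thbd, Nos3, Kdr and Cdh5 in further comparisons, Klf16 under HVT, Mapk7 and Fbxo32 were picked after their values were seen. Alternatives covered scaling, pseudocount, filter, probe set choice, trend, array weights, replicate block, covariates and leaving out each array.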

Additional observations from a re-analysis of the deposited data

How the results depend on the processing

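The 7 counts of called members and 37 member differences (each member in 5 comparisons, and Klf2 and Klf4 for genotype averaged over ventilation) were recomputed under 14 other settings and without each array in turn. Of 518 member differences under the other settings 476 kept direction and side of the threshold and 24 changed sign, and of 444 without 1 array 402 and 21 did. For genotype under ventilation the count of called members, 1 as reported, was 0 with equal medians, with the deposited values unscaled, with no filter, with the mean over probe sets, with every probe set on its own, with no trend and with the endothelial covariate, and 3 (Klf2, Klf4, Klf10) with array weights. It ranged from 0 to 3 when 1 array was left out, with 3 without KO SpV array 1. Of all genes these fits called 549 with array weights and 485 without KO SpV array 1, against 69. For genotype averaged over ventilation it was 2 (Klf2 and a Klf4 probe set) with the mean over probe sets, every probe set, the replicate block or the actin covariate (674 genes in all), 3 with array weights (1478 genes in all, against 348), 0 with the endothelial covariate, and 0 to 2 without 1 array. Of the 12 arrays, leaving out WT SpV array 2 or 3, WT HVT array 1 or 2, or any KO HVT array gave 0. For ventilation in KO it was 2 with array weights (1423 genes called in all, against 0) and 0 to 1 without 1 array (600 genes without KO SpV array 1). For ventilation in WT and for genotype under SpV it was 1 with array weights, which did not converge and called 431 genes in the first, against 7, and 1433 in the second, against 31. Unscaled, the median of all genes was -0.77 for genotype under ventilation, -0.47 under SpV and -0.29 for ventilation in KO, and Klf2 had -2.85 in the first of these. The causes were not tested.

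Signs turned as follows. With array weights Klf13 had 0.17 for ventilation in WT, and for ventilation in KO Klf5 had -0.021, Klf6 -0.11 and Klf13 0.16. Under SpV Klf6 had 0.14 and Klf13 -0.069. With the actin covariate Klf13 had 0.036 for ventilation in WT and -0.058 for genotype under SpV. Unscaled, Klf5 had -0.22 and Klf6 -0.13 for ventilation in KO, and Klf3 -0.22, Klf5 -0.25 and Klf13 -0.47 for genotype under SpV. With the mean over probe sets Klf4 had 0.14 for ventilation in KO, Klf6 0.32 for genotype under SpV and Klf5 0.050 under HVT. With the endothelial covariate Klf4 had 0.49 and Klf5 -0.062 for ventilation in KO. For genotype under SpV that covariate gave Klf2 0.39, Klf4 0.26, Klf5 -0.0057, Klf6 0.52 and Klf13 -0.36, and under HVT Klf3 0.16. Without 1 array, ventilation in WT ranged from -0.10 to 0.58 for Klf2 and -0.40 to 0.26 for Klf13. Ventilation in KO ranged from -0.54 to 0.34 for Klf4, -0.10 to 0.24 for Klf5, -0.36 to 0.59 for Klf6 and -0.40 to 0.17 for Klf13. Genotype under SpV ranged from -0.56 to 0.39 for Klf6 and -0.29 to 0.39 for Klf13, genotype under HVT from -0.36 to 0.054 for Klf5 and -0.27 to 0.30 for Klf13, and the interaction of Klf13 from -0.44 to 0.29.

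Arrays with the same number were not taken as pairs, by a rule that every such pair's deviations from the group means correlate over 0.1. Noise alone can break that rule, so it cannot settle the point. Of 18 same-number pairs 6 correlated over 0.1 (median 0.018, highest 0.39). Of 36 pairs with different numbers 6 did (median -0.018, highest 0.30). Whether the number marks a shared batch was not tested. With the replicate number as a block Klf2 had -1.99 (limma's adjusted p = 0.0205) under ventilation, and the block raised the averaged genotype calls over all genes from 348 to 510.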
